A study of Mus musculus with 6 samples.

Results

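The RNA levels of 10 genes of extracellular matrix remodelling were followed across 6 RNA-seq libraries made from the mouse melanoma line B16-F10, grown in culture. They are 10 of the 39179 genes in the deposited count files, chosen by name, with earlier results of these data known: the matrix proteins Sparc, Fn1, Col4a1, Col4a2 and Col18a1, the enzyme heparanase (Hpse), the metalloproteinases Mmp14 and Mmp2, and the metalloproteinase inhibitors Timp2 and Timp3. All 10 were found by their gene symbols, which were matched to Ensembl identifiers. Messenger RNA was sequenced from 3 libraries labelled Sirpa-WT, with intact Sirpa, and 3 labelled Sirpa-KO, a knockout of Sirpa, which encodes the CD47 receptor SIRPα. No treatment, time or other allele is given for either group. The labels do not describe the edit, and do not say whether the knockout line is 1 clone or whether its replicates were separate cultures. P-values below therefore reflect the spread between these 6 libraries, which may be technical. The label fields for cell line and tissue read Pmel and tumor, which does not match the culture of B16-F10 stated for the series.

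As background, the extracellular matrix is the protein and proteoglycan scaffold that surrounds cells. Basement membranes are sheets of it built on type IV collagen, laminins and the heparan sulfate proteoglycan perlecan. Tumour cells that invade must cross these sheets. They do so with metalloproteinases, which cleave the proteins and are held in check by the TIMPs, and with heparanase, which cuts the heparan sulfate chains and frees growth factors bound to them. B16 melanoma is a classic model in which heparanase and metalloproteinases were linked to invasion and spread.

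Depth limits what can be said of most of these genes. Sirpa-KO replicate 1 held 29877270 counted fragments and is called the deep library here, while the other 5 held 338824 to 411695 and are called shallow. One count equals 2.43 to 2.95 CPM (the count scaled to 1e6 counts a library) in a shallow library. The deep library also stands apart in its make-up: the median protein-coding gene of the 4294 tested without the deep library had a CPM there 0.92 log2 units above the pooled shallow libraries. The tests of the 10 genes are therefore given with and without it. Sirpa itself had 12, 7 and 3 counts in Sirpa-WT replicates 1 to 3, against 1584, 6 and 6 for the same numbers of Sirpa-KO, that is 8.68 to 29.1 CPM against 16.3 to 53.0 CPM. These counts neither bear out nor contradict the knockout, so each direction given here rests on the labels. Each of 10 melanocyte markers had counts in each library, with summed levels of 16895 to 20185 CPM in Sirpa-WT and 13573 to 18044 CPM in Sirpa-KO.

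Without the deep library, edgeR called heparanase alone of the 10 genes different between the groups, a call not made over all 6 libraries, and Sparc was the most abundant. The stretch before the start of each is shown so that the 2 can be compared, although only RNA was measured. Both are the 250 bases upstream of the RefSeq start on GRCm38.p6, minus strand, and both starts coincide with the outermost exon base in the count files. Capitals mark matches to GGGCGG, the GC box that Sp1-type factors can bind, on either strand.
Hpse, chr5:100719717-100719966: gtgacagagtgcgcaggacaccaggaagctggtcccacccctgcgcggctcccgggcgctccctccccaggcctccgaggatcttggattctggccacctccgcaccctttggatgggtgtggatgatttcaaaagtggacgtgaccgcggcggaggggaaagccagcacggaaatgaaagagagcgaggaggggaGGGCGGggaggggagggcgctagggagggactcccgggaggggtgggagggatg
Sparc, chr11:55420081-55420330: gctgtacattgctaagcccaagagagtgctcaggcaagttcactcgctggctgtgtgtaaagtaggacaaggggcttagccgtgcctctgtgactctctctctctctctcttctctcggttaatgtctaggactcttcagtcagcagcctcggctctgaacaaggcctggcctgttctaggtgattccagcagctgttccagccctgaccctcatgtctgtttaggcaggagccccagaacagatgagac
The Hpse stretch is 66.8% G and C and holds 1 GC box, whose first base lies 54 bases before the start. The Sparc stretch is 54.0% G and C and holds none. Of 32851 such RefSeq stretches, 32.7% hold GGGCGG. Neither gene had a match to the E-boxes CACGTG and CATGTG or to the AP-1 motif TGANTCA, which 6.02%, 12.3% and 6.75% of the stretches hold. RefSeq stretches were matched for 8 of the 10 genes.

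All 10 genes are placed on GRCm38 by the exon table in the count files. The 5 matrix proteins lie on chromosome 11 (Sparc, 55394500 to 55420080, minus strand), chromosome 1 (Fn1, 71585523 to 71653171, minus strand), chromosome 8 (Col4a1, 11198423 to 11312826, minus strand, and Col4a2, 11312805 to 11449287, plus strand) and chromosome 10 (Col18a1, 77052178 to 77166548, minus strand). Hpse lies on chromosome 5 (100679484 to 100719716, minus strand). Mmp14 is on chromosome 14 (54431604 to 54441258) and Mmp2 on chromosome 8 (92827328 to 92853417), both on the plus strand. Timp2 is on chromosome 11 (118301069 to 118355740, minus strand) and Timp3 on chromosome 10 (86300372 to 86349506, plus strand). Counts are of fragments over exons. Fragments were counted without regard to strand, so genes that overlap on opposite strands cannot be told apart there: Col4a1 and Col4a2 share 22 exonic bases head to head, Timp3 shares 1733 with Syn3, which had 1 count in the shallow libraries together and 126 in the deep one, and Fn1 shares 263 with Apol7d, which had 0 and 24.

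**Figure D1:**
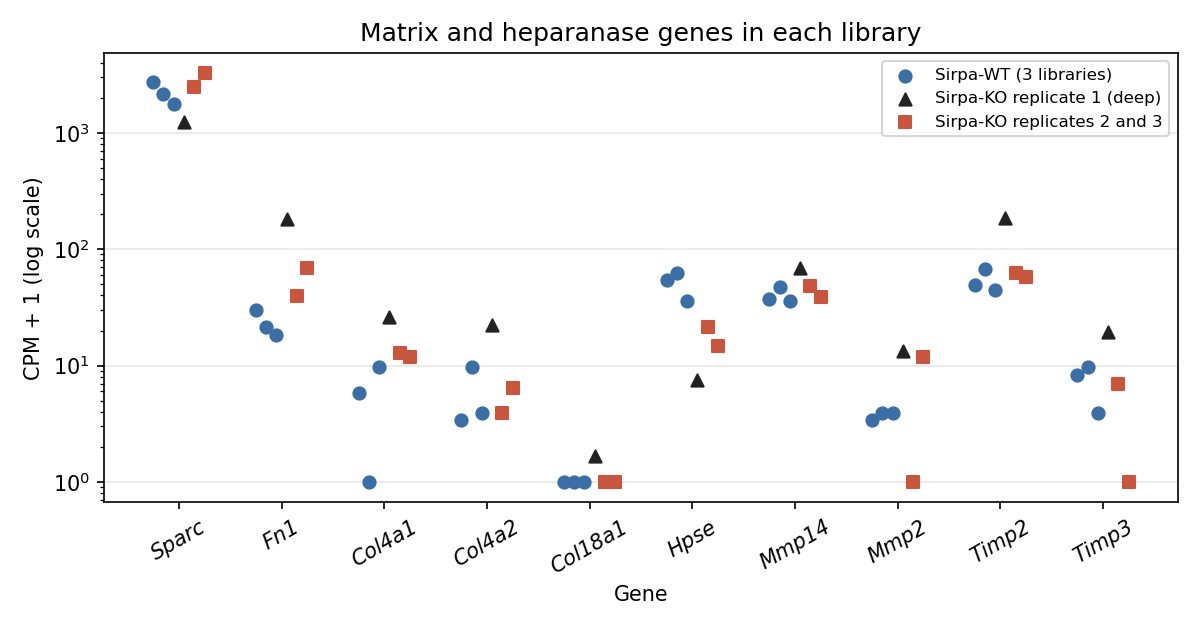
Level of each gene in each library, as CPM + 1 on a log axis, with circles for Sirpa-WT, squares for Sirpa-KO replicates 2 and 3 and triangles for the deep library. Hpse lies lower in each Sirpa-KO library (6.49 to 20.7 CPM) than all Sirpa-WT libraries (34.7 to 61.1 CPM), and Fn1 lies higher (38.4 to 180.6 against 17.4 to 29.1 CPM).

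Levels of different genes were compared per kilobase of exon. Sparc, a secreted calcium-binding matricellular glycoprotein that modulates cell contact with collagen, was by far the most abundant, at 651 ± 142 CPM per kilobase in Sirpa-WT (SD, n = 3). Mmp14 (15.1 ± 2.5), Hpse (14.1 ± 3.9) and Timp2 (13.6 ± 3.2) followed, all in CPM per kilobase in Sirpa-WT (SD, n = 3), and their ranges overlapped, so these 3 were not told apart. Fn1 came next at 2.68 ± 0.74 CPM per kilobase, apart from Timp2 above it. Its range also lay above that of Mmp2, but Mmp2 had 1 count in each Sirpa-WT library, too few to tell them apart. Mmp2 (0.90), Timp3 (0.77), Col4a2 (0.71) and Col4a1 (0.66 CPM per kilobase) rested on 3 to 7 counts each over the 3 Sirpa-WT libraries, and neighbours in this order did not differ beyond their spread. Col18a1 had no count in any shallow library. In the deep library, where each level rests on many more counts, the order began with Sparc (365), Timp2 (47.3), Mmp14 (26.3) and Fn1 (21.7 CPM per kilobase). Hpse stood ninth of 10 there, at 1.85 CPM per kilobase, and Col18a1 last at 0.095.

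Of the 10 genes, 5 (Sparc, Hpse, Fn1, Mmp14 and Timp2) had enough counts to be tested, and 1 of them, Hpse, was called, lower in Sirpa-KO, when the deep library was left out. In that fit, edgeR's quasi-likelihood test called 5.84% of all 5510 genes (Benjamini-Hochberg adjusted p under 0.05), of which those lower in Sirpa-KO made up 4.52% of genes tested and those higher 1.32%. Over all 6 libraries the test called 0 of the 5 members and 0% of 5397 genes, with 344 genes and 2 of the members, Hpse and Fn1, at an unadjusted p under 0.05. DESeq2 called 1 gene of the 5397 and no member. The 5 tested members had a median log2 fold change of 0.054 without the deep library, beside 0.013 over all genes tested, and of 0.24 over 6 libraries, beside 0.11.

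Heparanase is the endoglycosidase that cuts heparan sulfate chains within their length. Hpse had 22, 21 and 12 counts in Sirpa-WT replicates 1 to 3, that is 53.4, 61.1 and 34.7 CPM. In Sirpa-KO replicates 2 and 3 it had 7 and 5 counts, or 20.7 and 13.6 CPM, and in the deep library 194 counts, or 6.49 CPM. The lowest Sirpa-WT library thus lay above the highest Sirpa-KO library. Such full separation, with Sirpa-KO lower, was seen in 10.2% of the 5397 genes tested, and the exact permutation test of log2 CPM (2-sided, 3 against 3) gave p = 0.1, the smallest it allows. Without the deep library the log2 fold change was -1.65 ± 0.42 (SE, edgeR adjusted p = 0.00392), and over all 6 libraries -2.10 ± 0.60 (SE, edgeR adjusted p = 0.574). From counts pooled over the shallow libraries, 55 in Sirpa-WT and 12 in Sirpa-KO, the ratio of Sirpa-KO to Sirpa-WT was 0.34, with an exact 95% interval of 0.166 to 0.643 that covers counting error only. In a bulk sample, fewer cells with the RNA and less RNA per cell cannot be told apart.

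Hpse shares 0% of its 25-base words with annotated pseudogenes. It is also made by leukocytes, whose 10 listed markers summed to 9.72 to 26.2 CPM in Sirpa-WT and 5.15 to 35.4 CPM in Sirpa-KO, with Ptprc, the pan-leukocyte marker CD45, at 0 in all 5 shallow libraries and at 1 count in the deep one. Itgam had 3, 7 and 5 counts in Sirpa-WT, 5 and 9 for Sirpa-KO replicates 2 and 3, and 1 in the deep library, where Lyz2 (85) and Cd68 (61) led the list. The part of such cells in the Hpse values was not tested. Measured within each library against Mmp14, per kilobase, Hpse stood at 0.739 to 1.08 in Sirpa-WT. It stood at 0.323 and 0.264 in Sirpa-KO replicates 2 and 3 and at 0.0703 in the deep library. This comparison needs no scaling between libraries, but Mmp14 itself was 1.69-fold higher in the deep library than in the pooled shallow ones. The ratio was not tested, and the share of other gene pairs whose ratios do not overlap was not computed. Hpse also lay 3.44 log2 units below the median protein-coding gene in the ratio of the deep library to the shallow ones. With the trend of each shallow library on that ratio removed, its log2 fold change was -1.44 ± 0.43 (SE, edgeR adjusted p = 0.0402). As that ratio comes from a Sirpa-KO library, removal of the trend and an effect of genotype cannot be told apart. Without Sirpa-KO replicate 3 the call ended, at -1.39 (edgeR adjusted p = 0.172), and it also ended with limma voom, at -1.60 (adjusted p = 0.0599). DESeq2 gave Hpse no adjusted p without the deep library.

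**Figure D2:**
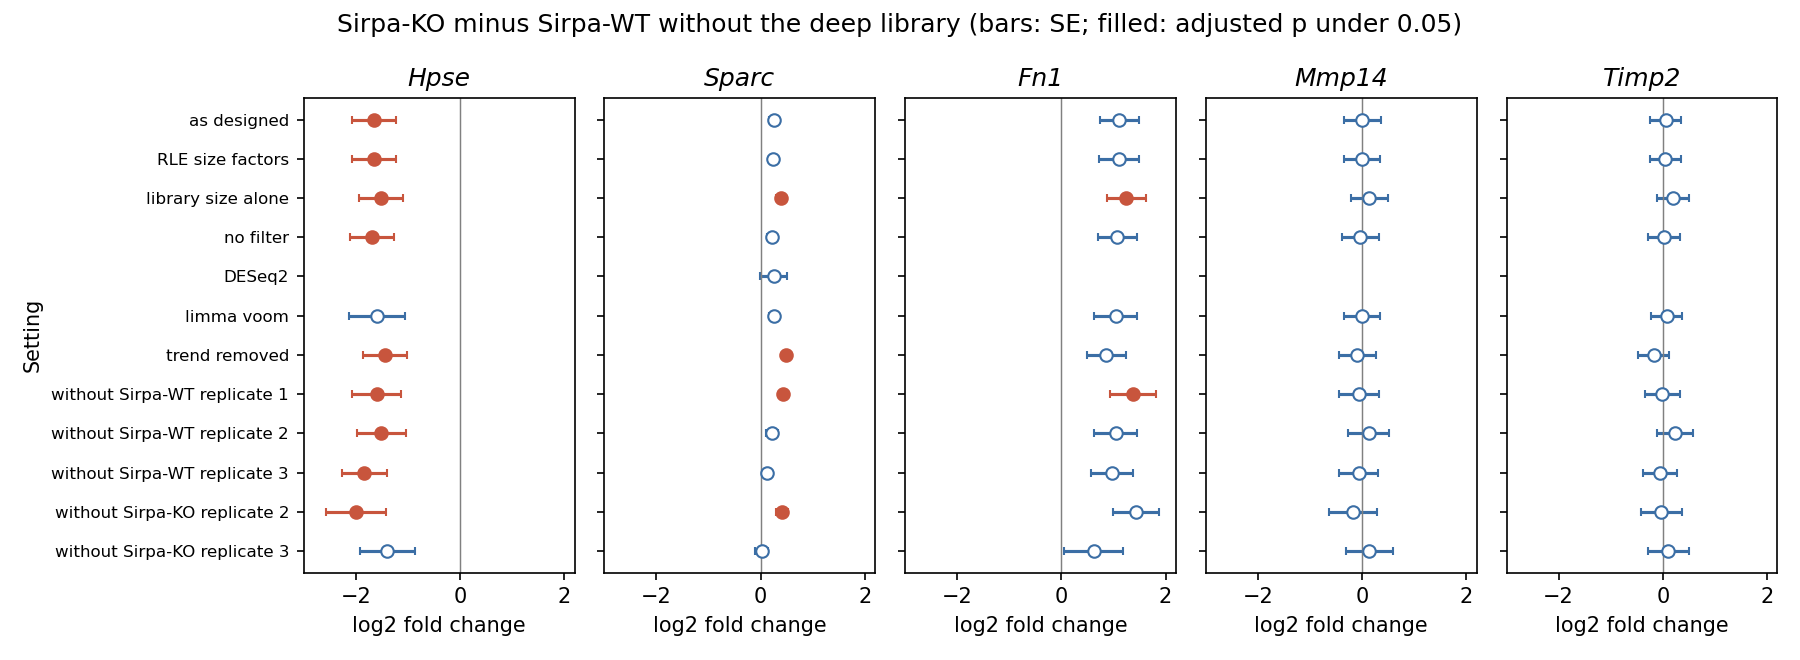
Log2 fold change of the 5 tested genes (Sirpa-KO minus Sirpa-WT, deep library left out) with its SE under each setting except the replicate block, which is not drawn, 1 row per setting. Filled points have an adjusted p under 0.05, and rows left blank had no adjusted p. Hpse stays between -1.99 and -1.39, Mmp14 and Timp2 lie on both sides of 0, and Sparc and Fn1 are called under some settings only.

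Fibronectin, the gene product of Fn1, is a large adhesive glycoprotein that links collagen and integrins. Its counts were 12, 7 and 6 in Sirpa-WT (29.1, 20.4 and 17.4 CPM), against 13 and 25 for Sirpa-KO replicates 2 and 3 (38.4 and 68.0 CPM). In the deep library it had 5395 counts (180.6 CPM). All Sirpa-KO libraries lay above all Sirpa-WT libraries, as did 20.4% of the 5397 genes tested, and the exact permutation test gave p = 0.1, the smallest it allows. Fn1 did not pass the adjusted test, at a log2 fold change of 1.11 ± 0.38 without the deep library (SE, edgeR adjusted p = 0.0523) and 1.94 ± 0.64 over 6 libraries (SE, edgeR adjusted p = 0.574). The pooled shallow counts, 25 against 38, gave a ratio of 2.37 (exact 95% interval for counting error 1.39 to 4.09). Fn1 was called at 1.38 without Sirpa-WT replicate 1 (edgeR adjusted p = 0.037), but not without Sirpa-KO replicate 3 (0.62, edgeR adjusted p = 0.662). Removal of the trend gave 0.86 (edgeR adjusted p = 0.292). Fn1 is also a fibroblast product, so fibroblast markers are given beside it: the 10 listed summed to 2.43 to 20.4 CPM in Sirpa-WT and 5.90 to 24.0 CPM in Sirpa-KO, with Dcn and Lum at 0 in all 6. In the deep library, where Fn1 was highest, 8 of the 10 had counts, led by Postn with 376 and Pdgfrb with 151. The part of such cells in the Fn1 values was not tested.

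Sparc was not called in either main fit, was called under some alternatives, and had a spread within a group as wide as the difference. It had 2699, 2129 and 1751 CPM in the Sirpa-WT replicates, against 2450 and 3228 CPM for Sirpa-KO replicates 2 and 3, from 605 to 1187 counts a library. In the deep library it stood at 1230 CPM, below all other libraries. The groups overlapped with and without that library. The pooled shallow counts, 2448 in Sirpa-WT and 2017 in Sirpa-KO, gave a ratio of 1.28 (exact 95% interval for counting error 1.21 to 1.36). The log2 fold change was 0.25 ± 0.09 without the deep library (SE, edgeR adjusted p = 0.0835) and -0.07 ± 0.58 over 6 libraries (SE, edgeR adjusted p = 0.944). With the deep library left out, Sparc was called higher with the trend removed (0.49, edgeR adjusted p = 9.2e-06). That trend is drawn from a Sirpa-KO library, so its removal and an effect of genotype cannot be told apart. Sparc was also called without Sirpa-WT replicate 1 (0.43, edgeR adjusted p = 7.87e-05). The same held with library size alone (0.39, edgeR adjusted p = 0.00233) and with the replicate number as a block (0.42, edgeR adjusted p = 0.000396). Its log2 fold change was 0.41 without Sirpa-KO replicate 2 and 0.024 without Sirpa-KO replicate 3. Of its 25-base words, 1.03% are shared with annotated pseudogenes.

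Per kilobase, Sparc stood 229 to 258 times above Fn1 in the Sirpa-WT libraries, 158 and 117 times in Sirpa-KO replicates 2 and 3, and 16.8 times in the deep library. This ratio within a library did not overlap between the groups. Neither did Fn1 alone, as was so, with Sirpa-KO higher, for 20.4% of the 5397 genes tested. How many other gene pairs have ratios that do not overlap was not computed. The ratio of Sparc to Fn1 was not tested, and neither gene was called.

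The type IV collagen chains, which form the basement membrane network, had 0 to 4 counts in each shallow library. The Sirpa-WT libraries held 2, 0 and 3 counts of Col4a1, and Sirpa-KO replicates 2 and 3 held 4 each. In CPM this is 4.86, 0 and 8.68 against 11.8 and 10.9, with 25 in the deep library from 747 counts. The groups did not overlap, as was also so, with Sirpa-KO higher, for 20.4% of the genes tested over 6 libraries and 26.3% of those tested without the deep one. Those shares are over genes that passed the count filter, which Col4a1 did not, so they are not like it in level. The pooled ratio of 2.49 had an exact 95% interval of 0.719 to 9.69. Col4a2 had 1, 3 and 1 counts against 1 and 2, and 632 in the deep library (21.2 CPM). Its pooled ratio was 0.935 with an interval of 0.145 to 4.81, so no difference was detectable at this depth. In the deep library Col4a1 made up 54.2% of the counts of the pair (exact interval 51.5 to 56.8%), and per kilobase it stood at 1.15 times Col4a2. In the pooled shallow libraries its share was 61.9% with an interval of 38.4 to 81.9%. Endothelial cells also make these chains: their 10 listed markers summed to 0 to 5.82 CPM in Sirpa-WT and 0 to 15.4 CPM in Sirpa-KO, with Cdh5, Kdr, Tie1, Emcn and Cldn5 at 0 in all 6. In the deep library, where both chains were highest, 4 of the 10 had counts, led by Egfl7 with 340 and Vwf with 108. Their part in the collagen values was not tested.

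Col18a1 encodes the collagen of basement membranes whose end fragment is endostatin. It had 0 counts in each shallow library, which allows up to 1.66 CPM over the 5 pooled, and 20 counts in the deep library, or 0.669 CPM. At that level 1.21 counts would be met in the 5 shallow libraries together, so the difference was not detectable at this depth.

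The membrane-anchored protease encoded by Mmp14 cleaves collagen and activates the secreted gelatinase Mmp2, with Timp2 as the adaptor that brings them together. Mmp14 had 36.4, 46.5 and 34.7 CPM in Sirpa-WT, 47.2 and 38.1 CPM in Sirpa-KO replicates 2 and 3 and 68.2 CPM in the deep library. The groups overlapped, and the log2 fold change was 0.0005 ± 0.35 without the deep library (SE, edgeR adjusted p = 0.999) and 0.24 ± 0.37 over 6 libraries (SE, edgeR adjusted p = 0.791). The pooled ratio was 1.09, and counting error alone gave it an interval from 0.659 to 1.77, so changes within that range were not detectable. Mmp2 had 1 count in each Sirpa-WT library, 0 and 4 in Sirpa-KO replicates 2 and 3 and 370 in the deep library (12.4 CPM), and was not tested. Its pooled ratio was 2.08 with an interval of 0.352 to 14.2. Mmp14 exceeded Mmp2 6.45-fold per kilobase in the deep library. Of 15 other metalloproteinase genes looked at, 8 had no count in any library, Mmp9 among them, which allows up to 0.1 CPM in the deep library. The highest of the rest there was Mmp15, at 4.69 CPM.

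TIMP-2 both inhibits metalloproteinases and takes part in Mmp2 activation, and TIMP-3 is the family member that binds to the matrix. Timp2 had 48.6, 66.9 and 43.4 CPM in Sirpa-WT, 62.0 and 57.1 CPM in Sirpa-KO replicates 2 and 3, and 184 CPM in the deep library. The shallow libraries overlapped while the deep one stood above them. Its log2 fold change was 0.054 ± 0.30 without the deep library (SE, edgeR adjusted p = 0.948) and 0.78 ± 0.54 with it (SE, edgeR adjusted p = 0.577). Within a library, Timp2 stood at 0.833 to 0.958 times Mmp14 per kilobase in Sirpa-WT, at 0.875 and 1.0 times in Sirpa-KO replicates 2 and 3, and at 1.80 times in the deep library. The Sirpa-WT libraries held 3, 3 and 1 counts of Timp3, Sirpa-KO replicates 2 and 3 held 2 and 0, and the deep library held 552 (18.5 CPM). Its pooled ratio of 0.445 had an interval of 0.0451 to 2.34. Timp1 and Timp4 had 389 counts and 1 count in the deep library. Per kilobase, Timp1 averaged 10.4 CPM over the 6 libraries, against 0.886 for Timp3 and 0.0039 for Timp4. The Timp1 level rests on 2 to 4 counts in each shallow library.

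The deep library shifted the members in opposite directions. Its CPM was above that of the pooled shallow libraries for Fn1 (5.18-fold), Col4a2 (4.78), Timp3 (3.71), Col4a1 (3.48), Timp2 (3.33), Mmp2 (3.20) and Mmp14 (1.69). It was below for Sparc (0.498-fold) and Hpse (0.175-fold). More than 2-fold higher were 2 of the 5 tested members, beside 35.8% of the 5510 genes tested, and Hpse lay at the 1.93th percentile of the 4294 protein-coding genes. Fn1 lay at the 97.7th percentile, and Mmp14, though 1.69-fold above the pooled shallow libraries, at the 43.5th. Members under the count filter are set beside genes that passed it and are not like them in level. As the deep library is 1 library labelled Sirpa-KO, its distance from the others and an effect of genotype cannot be told apart.

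**Figure D3:**
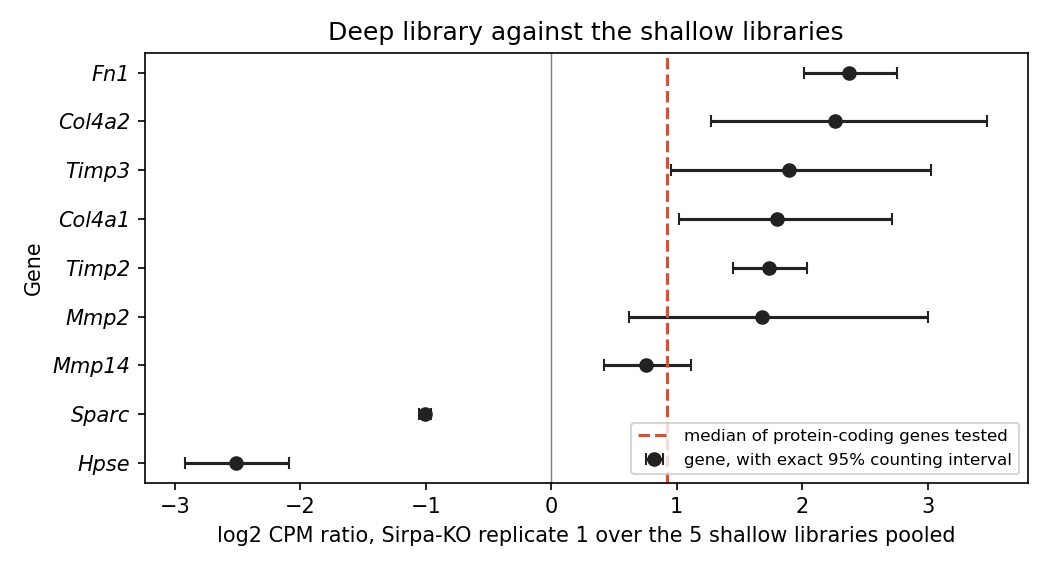
Log2 ratio of CPM in the deep library to the 5 shallow libraries pooled for the 9 genes with a shallow count, with exact 95% counting intervals. The dashed line is the median of protein-coding genes tested (0.92), which Hpse and Sparc fall well below and Fn1, Col4a2, Timp3, Col4a1, Timp2 and Mmp2 exceed.

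Other matrix genes were taken from lists of 174 genes, of which 32 had enough counts to be tested without the deep library. Of these 32, none rose, 3 fell and 29 did not pass, beside 1.32% higher and 4.52% lower among all 5510 genes tested. Their median log2 fold change was -0.13, beside 0.013 over all genes. Over all 6 libraries edgeR called 0 of 31 list genes, with a median of 0.13 beside 0.11 over all genes. Those that fell were Sparcl1, the closest relative of Sparc, Mfge8, a secreted adhesive bridge to dying cells, and Ctsd, the lysosomal aspartic protease cathepsin D. Sparcl1 went from 185 ± 18 CPM in Sirpa-WT (SD, n = 3) to 101 ± 24 CPM in Sirpa-KO replicates 2 and 3 (SD, n = 2), a shift of -1.0 ± 0.21 on the log2 scale (SE, edgeR adjusted p = 0.000235), and stood at 140 CPM in the deep library. Ctsd went from 1340 ± 164 to 900.2 ± 50.1 CPM (-0.70 ± 0.11, SE, edgeR adjusted p = 2.45e-08), with 619 CPM in the deep library. Mfge8 went from 108 ± 13 to 66.3 ± 6.2 CPM (-0.83 ± 0.26, SE, edgeR adjusted p = 0.0299), with 47.0 CPM in the deep library. None of the 3 was called over all 6 libraries, where Sparcl1 stood at -0.85, Mfge8 at -1.01 and Ctsd at -0.88 (edgeR adjusted p = 0.574 for each). With the deep library left out, Ctsd was called under each alternative tried, Sparcl1 was not called without Sirpa-KO replicate 3 (-0.78, edgeR adjusted p = 0.116), and Mfge8 lost its call with library size alone (-0.69, edgeR adjusted p = 0.0801), with no filter (-0.86, edgeR adjusted p = 0.0517), with the trend removed (-0.60, edgeR adjusted p = 0.277) and without Sirpa-WT replicate 1, Sirpa-KO replicate 2 or Sirpa-KO replicate 3 (-0.73, -0.76 and -0.94). DESeq2 gave Sparcl1 and Mfge8 no adjusted p.

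By role, 0 of 2 tested basement membrane genes passed, with Agrn, the heparan sulfate proteoglycan agrin, at -0.02 ± 0.19. Of 9 tested genes of collagen processing 0 passed, and P4hb, a subunit of the collagen prolyl hydroxylase, stood at 0.11 ± 0.14. Of 11 tested genes of heparan sulfate proteoglycans, their synthesis and their trimming, 0 passed and 3 had positive values. Positive values were also met in 2 of the 9 collagen processing genes and 4 of the 7 proteases. The share of positive values over all genes was not computed, so no direction of a list is read from these counts. Scaling by library size alone moved the median log2 fold change of all genes by 0.14. Of 7 tested proteases 1 fell, Ctsd, which also serves general lysosomal protein breakdown. The 1 tested protease inhibitor, the cystatin Cst3, stood at -0.10 ± 0.35, and no interstitial collagen of 15 listed had enough counts to be tested. These values are log2 fold changes ± SE without the deep library. Over all 6 libraries Agrn stood at -0.30, P4hb at 0.35 and Cst3 at 1.19, and the median of the 9 collagen processing genes moved from -0.17 to 0.35 and that of the 7 proteases from 0.06 to 0.65. The median of the heparan sulfate list moved from -0.29 (11 genes) to -0.51 (10 genes).

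**Figure D4:**
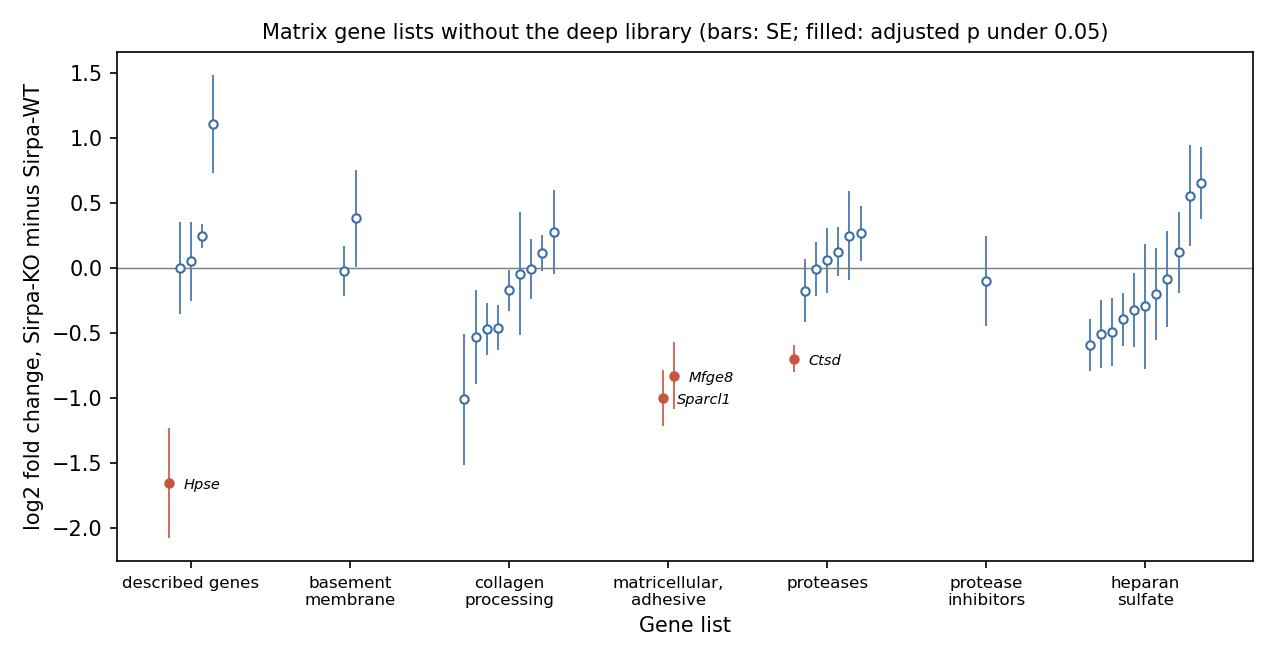
Log2 fold change (Sirpa-KO minus Sirpa-WT, deep library left out) of each tested gene by list, with SE; filled points have an edgeR adjusted p under 0.05. The 4 filled points, Hpse, Sparcl1, Mfge8 and Ctsd, all lie below 0.

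The genes whose pattern over the 6 libraries lay nearest to a member were named by the distance of log2 CPM from the gene's mean, over 5396 other genes. For Sparc these were Dph2 and Inpp5e (distances of 0.27 and 0.33 log2 units), and for Hpse Aldh1l2 and Nsdhl (0.57 and 0.88). Aldh1l2 ran from 110 to 163 CPM in Sirpa-WT and from 26.4 to 73.8 CPM in Sirpa-KO. It was chosen for its likeness to Hpse over these same libraries, so its levels are a description.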

How the data were processed

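RNA was counted in 3 Sirpa-WT and 3 Sirpa-KO libraries. The deposited counts are raw fragments per gene; the command in the file headers is featureCounts 1.5.1 on exons of Ensembl release 75 (GRCm38) with no strand option, and STAR 2.6.0 and Subread are listed in the submitters' processing notes. All values are whole numbers. Groups and replicate numbers came from the titles. Symbols for 37607 of 39179 genes are those of GENCODE M21.

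The members, gene lists, tests and alternatives were chosen with earlier results of these data known. Genes were filtered with filterByExpr (minimum count 10), given TMM factors and fitted with glmQLFit of edgeR (robust=TRUE). P-values are 2-sided and Benjamini-Hochberg adjusted across the whole table, and calls are at 0.05. The trend removed in 1 alternative is a lowess curve (span 0.3) of each library's log2 CPM (prior count 2) on the log2 ratio of Sirpa-KO replicate 1 to the other 5, used as an offset. As that replicate is labelled Sirpa-KO, the offset and an effect of genotype cannot be told apart. Levels are CPM of the deposited totals. A count of 0 allows up to 3 counts. Intervals are exact, at 95%. They and the floors cover counting error only. Replicates were not taken as repeats of 1 library, as chi-square divided by its degrees of freedom was 1.15 to 1.45 for each shallow pair within a group. Named were all members, each list gene called without Sirpa-KO replicate 1 or else the most abundant tested gene of its list, and the 2 nearest genes in pattern to Sparc and each called member; Timp1, Timp4, Mmp9 and Mmp15 were chosen after their values were seen. A gene that this rule names is not reported here. On simulated data with 5 libraries (5547 genes), 30.3%, 82.1% and 100% of genes changed 1.5-, 2- and 4-fold were recovered, with 10 false among 152 calls. Changes were placed only on genes above a count level that Hpse, Fn1 and Mmp14 do not reach, and all genes had the same dispersion. These rates therefore do not give the power for those members. DESeq2 1.42.0, edgeR 4.0.16 and limma 3.58.1 ran in R 4.3.3.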

Additional observations from a re-analysis of the deposited data

How the results depend on the processing

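Over 6 libraries the count of 0 called genes (edgeR; 344 at an unadjusted p under 0.05) became 1 with DESeq2 and 1283 with limma voom, which called 1 of the matrix members, Hpse (-3.19); leaving out each library gave 0 to 322 genes and 0 to 1 members, the highest without Sirpa-KO replicate 1. Sparc turned from -0.07 to 0.12 with library size alone and ran from -0.45 to 0.25 with each library left out.

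Without Sirpa-KO replicate 1, the 322 called genes numbered 132 by DESeq2, 104 once the trend was removed, and 125 to 351 when a further library was left out. The 1 called member became 3 with library size alone (Sparc, Fn1 and Hpse), 0 with limma voom, 2 with the trend removed (Sparc and Hpse) and 0 to 3 when a library was left out; the 3 called list genes became 1 to 4. Leaving out Sirpa-KO replicate 2 or 3 leaves 1 library in that group, assumed to vary like the others. DESeq2 gave Hpse, Fn1, Mmp14, Timp2, Sparcl1, Mfge8 and Cst3 no adjusted p, so its count of members is not given and 2 of the 3 called list genes were not checked by it. Signs of values near 0 changed: Mmp14 was -0.0026 with RLE, -0.035 with no filter and -0.093 with the trend removed, and Timp2 was -0.18 with the trend removed. Agrn was 0.12 with library size alone, 0.0021 with limma voom and 0.21 with the trend removed, Cst3 0.040 with library size alone and P4hb -0.0052 with the trend removed. With each library left out, Mmp14 ran from -0.18 to 0.14, Timp2 from -0.054 to 0.24, Agrn from -0.17 to 0.13, P4hb from -0.013 to 0.26 and Cst3 from -0.63 to 0.24. Library size alone moved the median log2 fold change of all genes by 0.14 (0.26 over 6 libraries, where RLE moved it by -0.14) and split the calls into 279 higher and 128 lower, against 73 and 249. The causes of these differences were not tested.

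No pairing by replicate number was seen: deviations of same-numbered libraries correlated at 0.024, -0.042 and 0.058, and 2 of 6 libraries correlated best with their own number. The Sirpa-KO deviations were taken from a mean that includes the deep library, so this check cannot exclude a pairing. With the replicate number as a block, 0 genes were called over 6 libraries and 316 without Sirpa-KO replicate 1. In that blocked fit 2 members were called, Hpse and Sparc (0.42), with Mmp14 at -0.047, Timp2 at -0.0025 and Agrn at 0.13, and Mfge8 was not called.

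Depth limits the shallow libraries: 3 counts, the most that a 0 allows, come to 7.29 to 8.85 CPM. Col4a1, Col4a2, Col18a1, Mmp2 and Timp3 had 0 to 4 counts in each such library.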

Other observations

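Syndecans and glypicans carry heparan sulfate, the substrate of heparanase, on the cell surface. Of 10 syndecan and glypican genes, 2 had no count in any library and none had enough counts to be tested. Gpc1, which encodes glypican-1, was the highest there at 124 CPM, from 3715 counts, while it had 3 to 7 counts in each shallow library. Perlecan (Hspg2) stood at 99.6 CPM in the deep library, from 2976 counts, with 6 counts in each Sirpa-WT library and 7 and 11 in Sirpa-KO replicates 2 and 3. Among the matrix proteases, Adamts1, a secreted protease of proteoglycans, stood at 224 CPM in the deep library, with 5 to 10 counts in each shallow library. Hpse2, the inactive relative of heparanase, had 1 count in the deep library and none in the others. These genes were chosen after their values were seen.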
